A study of Homo sapiens with 12 samples.

Results

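TIMM50, DLL3, SUPT5H, PLEKHG2, ZFP36, EID2 and EID2B lie close together on human chromosome 19, around a copy of LTR5HS, the youngest long terminal repeat of the endogenous retrovirus family HERVK. Other genes lie between them, among them RPS16 and SELV, which are not part of the set. The 7 genes were taken by name from a count table of 26641 genes, and all 7 had counts in every library. RNA was measured in NCCIT, a human embryonal carcinoma line, with either dCas9-VPR, a catalytically dead Cas9 joined to an activation domain (CRISPRa), or dCas9-KRAB, the same protein joined to a repression domain (CRISPRi). Each line carried 1 of 3 arrays of guide RNAs. The LTR5HS Sp array directs either fusion to LTR5HS and is called recruitment here, whereas the LTR5HS Sa array, which is written for the Cas9 of another bacterium, and the nontarget Sp array served together as control. All 6 lines had the fusion and the array integrated by PiggyBac transposition, were selected with puromycin and G418 and received doxycycline for 4 days. Each line gave 2 biological replicates, so that recruitment had 2 libraries and control 4 with each fusion. Since a given fusion and array were present in 1 line, the array and the line that carried it cannot be told apart.

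The 7 genes have unrelated roles. TIMM50 is a receptor subunit of the TIM23 complex, which passes proteins with a targeting sequence through the inner membrane of mitochondria. DLL3 is a Notch ligand of the Delta family that does not activate receptors on neighbouring cells and lowers Notch signaling inside the cell that makes it. SUPT5H pairs with SUPT4H1 to form DSIF, which holds and then releases RNA polymerase II early in a gene, and PLEKHG2 is a guanine nucleotide exchange factor. ZFP36, also known as tristetraprolin, binds AU-rich elements of short-lived mRNAs and promotes their decay. EID2 and EID2B are related inhibitors of differentiation that act on the acetyltransferase EP300.

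Long terminal repeats hold the promoter and enhancer sequences of a retrovirus. A dCas9 fusion needs a match to the guide next to a short motif, NGG for the Sp arrays. In GRCh38, a search with 13 other LTR5HS sequences of chromosome 19 found a stretch of 980 bp at chr19:39479462-39480441, where each query had 1 alignment of over 800 bp, with an identity of 82.0 to 93.2%. One query spanned the whole stretch, and the others aligned from chr19:39479611 or later, 5 of them with a shorter piece at its start. The closely related HERVK repeats LTR5A and LTR5B were not used as queries, so the search alone does not tell them from LTR5HS. This stretch lies between SUPT5H and TIMM50, 2.79 kb beyond the end of SUPT5H. Of the 12 guides of the LTR5HS Sp array, 5 matched it over all 16 bases with an NGG. The 5 sites are shown because they are the guide sites without mismatch nearest to TIMM50. They are written 5′ to 3′ on the strand that the guide matches, with the NGG in capitals.
LTR5HS-7, chr19:39479810-39479828, minus strand: aaccttggacaataccTGG
LTR5HS-4, chr19:39479890-39479908, plus strand: agcccgacacccgtaaAGG
LTR5HS-8, chr19:39479903-39479921, plus strand: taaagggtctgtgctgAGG
LTR5HS-3, chr19:39480050-39480068, plus strand: aaaactgccttagggcTGG
LTR5HS-1, chr19:39480270-39480288, plus strand: tactaagggaactcagAGG

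The last of these sites ended 550 bp before the canonical TIMM50 transcription start of GENCODE 44. A further 2 guides matched the stretch with 1 mismatch. The LTR5HS stretch itself ended 397 bp before that start, and 1 of the 19 annotated TIMM50 transcripts starts inside it. The study reports appreciable chimeric transcription between LTR5HS and TIMM50 in its RNA-seq data, which was not examined here. TIMM50 spans chr19:39480412-39493785 on the plus strand. DLL3, at chr19:39498895-39508481 on the same strand, begins 5.11 kb beyond the end of TIMM50, and its canonical start is 18.5 kb from the LTR5HS. Upstream on the plus strand lie SUPT5H at chr19:39436156-39476670, PLEKHG2 at chr19:39412669-39428415 and ZFP36 at chr19:39406847-39409412. Their canonical starts are 33.9, 66.8 and 72.6 kb from the LTR5HS. Downstream on the minus strand lie EID2B at chr19:39530987-39532852 and EID2 at chr19:39538707-39540161, with starts 52.4 and 59.7 kb away. The LTR5HS therefore sits outside the annotated span of each of the 7 genes, except for its end. That end, chr19:39480412-39480441, overlaps the annotated span of TIMM50. The guide sites written above all lie before the overlap, the last ending at chr19:39480288.

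**Figure D1:**
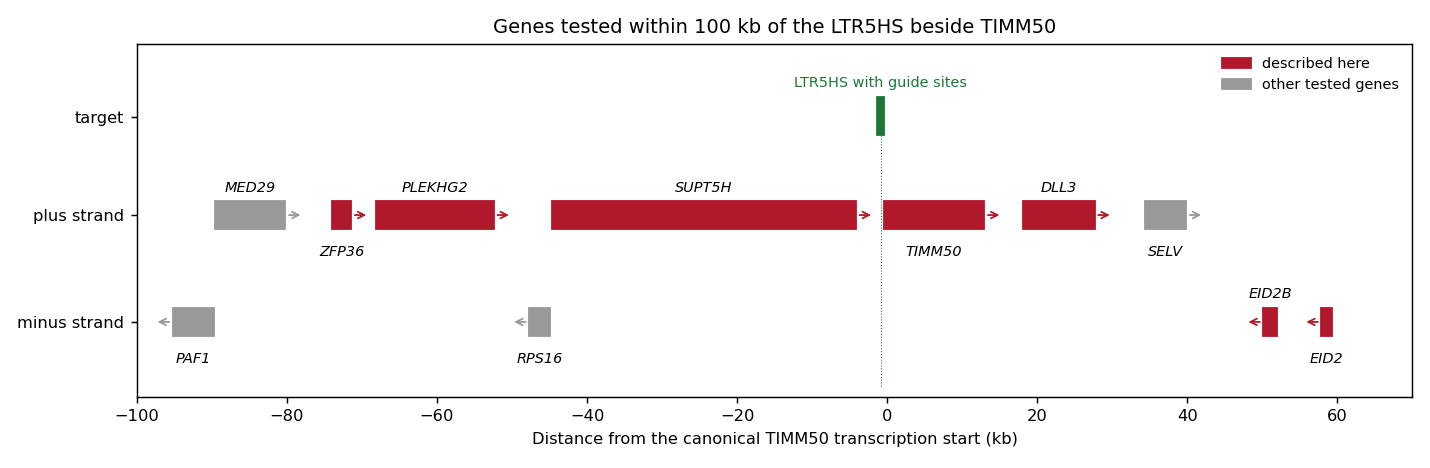
Map of the genes tested within 100 kb of the LTR5HS beside TIMM50, with the distance from the canonical TIMM50 start in kb on the x axis and the strand on the y axis. Boxes are annotated gene spans drawn to scale, arrows point in the direction of transcription, and the LTR5HS of 980 bp stands between the end of SUPT5H and the body of TIMM50.

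The libraries held between 13601701 and 69797411 counts in genes. The deepest, dCas9-KRAB nontarget Sp replicate 2, stood above the next at 24840708. Expression is given as CPM, a gene's count scaled to the TMM-normalized size of its library, and 3 counts corresponded to 0.0455 to 0.233 CPM. Markers of embryonal carcinoma cells were present in every library. LIN28A lay between 282 and 1519 CPM, SOX2 between 132 and 976 CPM and TDGF1 between 9.04 and 252 CPM. SOX2 was lower with CRISPRa recruitment, at 132 and 174 CPM against 273.5 to 447 CPM in the controls. With dCas9-KRAB it had 802 and 922 CPM with recruitment against 733 to 976 CPM. LIN28A with CRISPRa recruitment, at 374 and 478 CPM, lay within its controls at 282 to 757 CPM. The lines with the 2 fusions stood apart, since NANOG lay between 1.05 and 5.01 CPM in the dCas9-VPR libraries and between 92.8 and 185 CPM in the dCas9-KRAB libraries. POU5F1 lay between 9.85 and 28.3 CPM in the dCas9-VPR libraries and between 41.1 and 113 CPM in the dCas9-KRAB libraries. Of 10 markers of other cell types, COL1A1, a collagen of fibroblasts and other mesenchymal cells, reached 2897 and 3006 CPM in the CRISPRa recruitment libraries, against 60.2 to 90.1 CPM in their controls. The sum of the other 9 markers was 26.3 and 36.4 CPM there and 9.29 to 16.8 CPM in the controls, with PTPRC, ALB, KRT5 and MYOD1 at 4 counts or fewer. Most of that sum was GATA3, a transcription factor of trophoblast and other lineages, with 21.9 and 31.0 CPM against 5.91 to 12.4 CPM, and with dCas9-KRAB 3.99 and 5.94 CPM with recruitment against 1.16 to 2.27 CPM. The part of these differences in the results was not tested.

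With recruitment of dCas9-VPR, 5 of the 7 genes rose and none fell. DLL3 rose the most, to 180 times its control level, followed by TIMM50 at 2.57-fold, PLEKHG2 at 2.19-fold, SUPT5H at 1.71-fold and EID2 at 1.51-fold. Across all 16271 genes tested with this fusion, 28.0% passed the threshold of an adjusted p under 0.05 (edgeR quasi-likelihood test, Benjamini-Hochberg adjustment), 15.7% as higher. With recruitment of dCas9-KRAB, 2 of the 7 genes fell and none rose. TIMM50 fell to a level 3.29-fold lower and DLL3 to a level 2.31-fold lower, while 2.77% of the 15520 genes tested passed the threshold, 1.94% as lower. TIMM50 and DLL3 were therefore the members that passed with both fusions, in opposite directions. The 7 genes were chosen with earlier results of these data known. The shares of all genes beside these counts are thus background and give no test of the locus. In these bulk samples, a change in the RNA of every cell and a change in the share of cells that make it cannot be told apart.

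**Figure D2:**
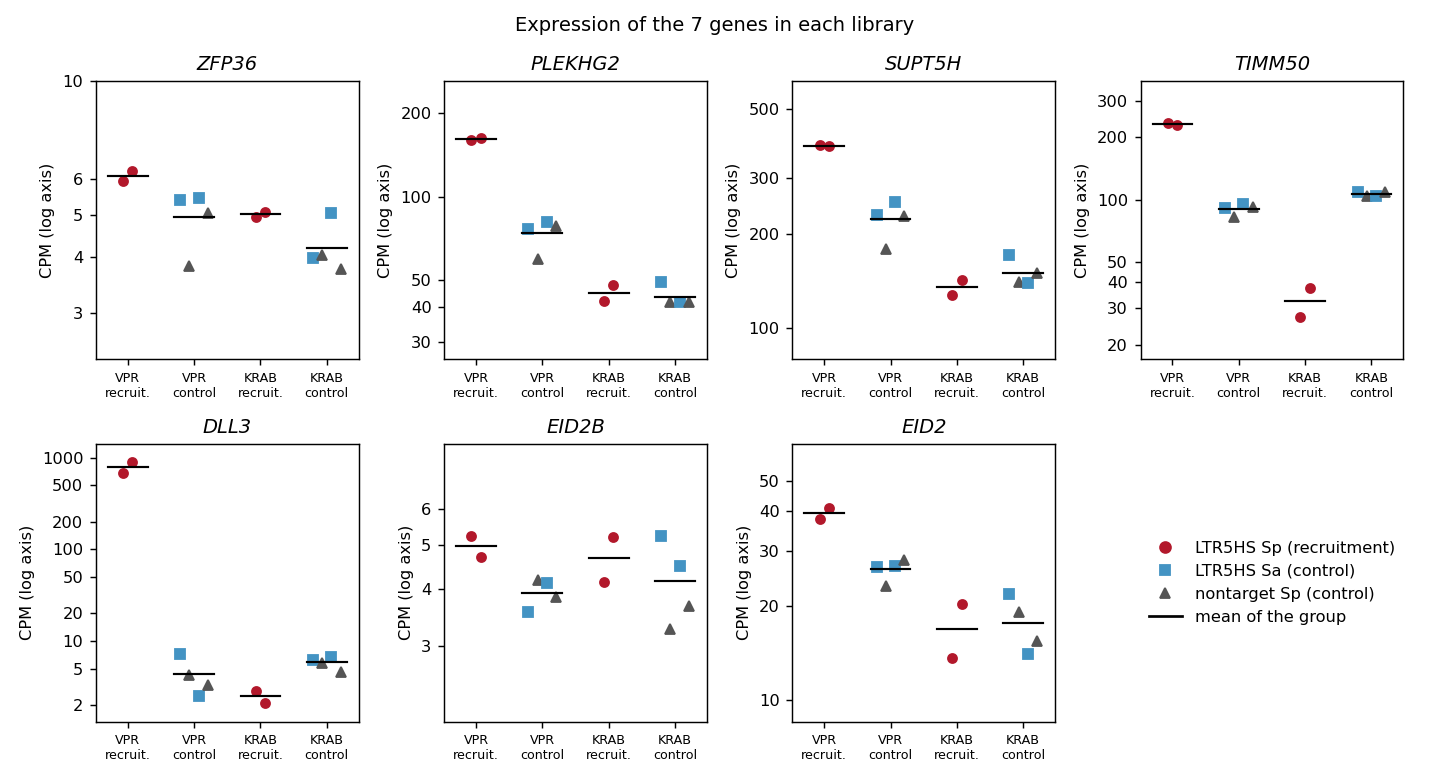
CPM of each gene (log axis) in each of the 12 libraries, by fusion and by recruitment or control. Red circles are LTR5HS Sp, blue squares LTR5HS Sa and grey triangles nontarget Sp libraries, and lines are group means. The recruitment libraries of TIMM50 and DLL3 lie above all controls with dCas9-VPR and below all controls with dCas9-KRAB. With dCas9-VPR every gene shown separates in this way, also ZFP36 and EID2B, which did not pass the test. The share of all genes that separate was not determined.

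TIMM50, next to the LTR5HS, had 234 and 231 CPM in the CRISPRa recruitment libraries. The LTR5HS Sa controls had 91.6 and 95.4 CPM, and the nontarget Sp controls 82.5 and 91.9 CPM. Both recruitment libraries were thus above all controls by more than the range of either group. The log2 fold change was 1.36 (SE 0.10, adjusted p = 3.60e-05 with edgeR). Under CRISPRi, TIMM50 had 27.3 and 37.6 CPM with recruitment, 108.5 and 105 CPM with LTR5HS Sa and 104 and 109.5 CPM with nontarget Sp. The 4 control libraries agreed within a coefficient of variation of 2.57%, and the pair of recruitment libraries lay far below them. The log2 fold change was -1.72 (SE 0.14, adjusted p = 0.000134 with edgeR). It lay between -1.97 and -1.51 when each library was left out in turn, and TIMM50 passed the threshold each time.

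DLL3 RNA was low without recruitment. With CRISPRa it had 679 and 892 CPM in the recruitment libraries, from 12203 and 16687 counts. The LTR5HS Sa controls had 7.22 and 2.53 CPM, from 162 and 51 counts, and the nontarget Sp controls 4.23 and 3.31 CPM, from 82 and 63 counts. The lowest recruitment library was above the highest control by a wide gap, although the controls themselves varied with a coefficient of variation of 47.5%. The log2 fold change was 7.49 (SE 0.35, adjusted p = 5.45e-06 with edgeR), at the 99.9 percentile of all genes tested. It lay between 7.27 and 7.88 without each library in turn.

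Under CRISPRi, DLL3 had 2.86 and 2.099 CPM with recruitment, from 51 and 31 counts. The controls had 6.20 and 6.75 CPM with LTR5HS Sa and 5.74 and 4.59 CPM with nontarget Sp. The recruitment libraries lay below all 4 controls, at low counts. The log2 fold change was -1.21 (SE 0.25, adjusted p = 0.0323 with edgeR). This call was less firm than that of TIMM50. The fold change kept its sign without each library in turn, between -1.46 and -1.01, but the adjusted p rose to 0.0966 without recruitment replicate 1, to 0.271 without recruitment replicate 2, to 0.0810 without LTR5HS Sa replicate 1 and to 0.0557 without LTR5HS Sa replicate 2. With nontarget Sp as the sole control it was 0.0787, and with all 12 libraries in one fit 0.139.

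The order of levels changed with recruitment. Per kb of the gene length given with the counts, DLL3 stood at 1.82 ± 0.86 CPM per kb (SD, n = 4) in the dCas9-VPR controls, TIMM50 at 19.2 ± 1.17 and SUPT5H at 57.5 ± 7.995. In the CRISPRa recruitment libraries DLL3 stood at 330 ± 63.1 CPM per kb (SD, n = 2), against 98.4 ± 0.59 for SUPT5H and 49.4 ± 0.45 for TIMM50. DLL3 was thus the lowest of the 7 by this scale in the dCas9-VPR controls and the highest with recruitment. EID2 had 18.7 ± 1.48, PLEKHG2 9.71 ± 1.27, EID2B 2.94 ± 0.21 and ZFP36 2.81 ± 0.44 CPM per kb in the same controls. The neighbours in this order TIMM50 and EID2, ZFP36 and EID2B, and ZFP36 and DLL3 did not differ beyond the sum of their SDs. With dCas9-KRAB recruitment, SUPT5H was highest at 34.9 ± 2.72 CPM per kb (SD, n = 2) and DLL3 lowest at 1.04 ± 0.23, with TIMM50 at 6.90 ± 1.55, below EID2 at 12.1 ± 3.33.

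Of the genes upstream of the LTR5HS, SUPT5H and PLEKHG2 rose with CRISPRa. SUPT5H, whose end is the closest to the LTR5HS from that side, had 382 and 379 CPM in the CRISPRa recruitment libraries, 229 and 253 CPM with LTR5HS Sa and 179 and 228 CPM with nontarget Sp. The recruitment libraries were above every control. The log2 fold change was 0.78 (SE 0.14, adjusted p = 0.00426 with edgeR). Under CRISPRi SUPT5H had 128 and 142.5 CPM with recruitment and 140 to 171 CPM in the controls. Here the groups overlapped, and the log2 fold change of -0.15 (SE 0.12) did not pass the test (adjusted p = 0.631 with edgeR).

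PLEKHG2 followed SUPT5H closely. It had 160 and 163 CPM in the CRISPRa recruitment libraries, 76.3 and 81.1 CPM with LTR5HS Sa and 59.6 and 78.4 CPM with nontarget Sp. The log2 fold change was 1.13 (SE 0.14, adjusted p = 0.000555 with edgeR), so that the gene whose start was 66.8 kb away rose by more than SUPT5H at 33.9 kb, a difference that was not tested. Under CRISPRi the recruitment libraries had 42.1 and 48.2 CPM and the controls 41.7 to 49.3 CPM. The recruitment values fell inside the range of the controls, with a log2 fold change of 0.05 (SE 0.12, adjusted p = 0.896 with edgeR). ZFP36, the gene farthest upstream, had 5.96 and 6.25 CPM with CRISPRa recruitment and 3.82 to 5.46 CPM in the controls. The groups did not overlap, but the log2 fold change of 0.31 (SE 0.21) did not pass the test (adjusted p = 0.322 with edgeR). Under CRISPRi it had 4.93 and 5.08 CPM against 3.78 to 5.04 CPM, with a log2 fold change of 0.26 (SE 0.20, adjusted p = 0.626 with edgeR).

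Downstream of DLL3, the pair of EID genes was measured at lower levels. EID2 had 37.8 and 41.2 CPM with CRISPRa recruitment, 26.6 and 26.7 CPM with LTR5HS Sa and 23.2 and 28.0 CPM with nontarget Sp. Both recruitment libraries were above every control, with a log2 fold change of 0.60 (SE 0.13, adjusted p = 0.00903 with edgeR). Without recruitment replicate 2 the change was 0.53 and no longer passed the test (adjusted p = 0.101). EID2B had 5.23 and 4.70 CPM with recruitment and 3.57 to 4.18 CPM in the controls. These groups also did not overlap, and the log2 fold change of 0.34 (SE 0.19) did not pass the test (adjusted p = 0.219 with edgeR). The share of all genes without overlap between recruitment and control libraries was not determined. Under CRISPRi both genes overlapped with their controls. EID2 had 13.6 and 20.2 CPM with recruitment and 14.04 to 21.8 CPM in the controls, and EID2B 4.15 and 5.21 CPM against 3.26 to 5.23 CPM. Their log2 fold changes were -0.06 (SE 0.22) and 0.18 (SE 0.25). EID2 and EID2B are paralogs, and how reads shared between them were counted is not given in the sources used here.

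**Figure D3:**
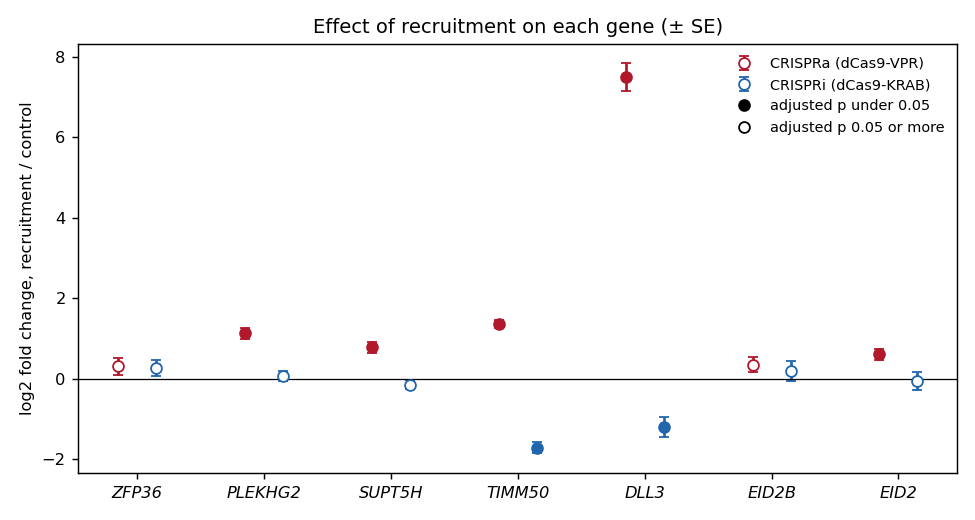
Log2 fold change of recruitment over control (y axis) for the 7 genes in chromosome order, with dCas9-VPR in red and dCas9-KRAB in blue. Bars are standard errors and filled circles passed the threshold of an adjusted p under 0.05, 5 genes with dCas9-VPR and 2 with dCas9-KRAB.

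Whether recruitment acted differently with the 2 fusions was tested as an interaction in a fit of all 12 libraries. The effect with dCas9-VPR exceeded that with dCas9-KRAB for TIMM50 by 3.08 on the log2 scale (SE 0.17, adjusted p = 5.18e-08 with edgeR) and for DLL3 by 8.67 (SE 0.48, adjusted p = 5.85e-08). It also did so for PLEKHG2, by 1.08 (SE 0.18, adjusted p = 0.000965), and SUPT5H, by 0.93 (SE 0.18, adjusted p = 0.00290). For these 2 genes the dCas9-KRAB value itself did not pass. EID2 differed by 0.66 (SE 0.27, adjusted p = 0.104), EID2B by 0.16 and ZFP36 by 0.05, and none of these passed. Without the dCas9-KRAB recruitment replicate 2, EID2 passed with 0.96 (adjusted p = 0.0427). Thus 4 of 7 genes passed, where 21.0% of 16673 genes did, a comparison limited in the same way by how the 7 were chosen.

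The controls were compared in the same way. Between LTR5HS Sa and nontarget Sp, 0 of 7 genes passed with dCas9-VPR (edgeR; 0 also at an unadjusted p under 0.05) and 0 of 7 with dCas9-KRAB (0 unadjusted), and DESeq2 also called 0 in each. Of all genes, 4.46% and 1.46% passed. The largest difference was that of EID2B with dCas9-KRAB, a log2 fold change of 0.49 (SE 0.25). With the replicate number as a block, SUPT5H passed between the arrays with dCas9-VPR (log2 fold change 0.27, adjusted p = 0.0256 with edgeR), when 3824 genes passed instead of 700. Without nontarget Sp replicate 2, which left 1 library in that group, SUPT5H (0.46, adjusted p = 0.0108) and PLEKHG2 (0.43, adjusted p = 0.0234) passed.

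Between the control libraries of the fusions, 54.9% of 15448 genes differed, and 4 of the 7 were among them. SUPT5H stood at 222 ± 30.9 CPM (SD, n = 4) with dCas9-VPR and 150 ± 14.7 CPM with dCas9-KRAB, PLEKHG2 at 73.9 ± 9.68 and 43.6 ± 3.76 CPM, and EID2 at 26.1 ± 2.06 and 17.6 ± 3.52 CPM. These genes were higher with dCas9-VPR by 0.58 (adjusted p = 0.00159), 0.78 (adjusted p = 0.000233) and 0.59 (adjusted p = 0.00612) on the log2 scale with edgeR. These are the 3 genes that passed with CRISPRa recruitment and not with CRISPRi. TIMM50 was lower with dCas9-VPR, at 90.4 ± 5.51 against 107 ± 2.74 CPM (log2 difference -0.22, adjusted p = 0.0351), but its adjusted p rose to as much as 0.0924 when 1 library was left out. DLL3 had 4.33 ± 2.05 and 5.82 ± 0.92 CPM, and its log2 difference of -0.39 did not pass (adjusted p = 0.272). Without dCas9-VPR LTR5HS Sa replicate 1, which held the most DLL3 of its group, the difference was -0.76 (adjusted p = 0.0210).

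The other genes around the locus were tested in the same fits. Within 100 kb of the LTR5HS, 4 other genes were tested, and none passed with either fusion, beside 28.0% and 2.77% of all genes. RPS16, a ribosomal protein gene on the minus strand, starts 207 bp from the outer edge of the annotated SUPT5H span. The canonical SUPT5H start lies farther inside that span, at 33.9 kb from the LTR5HS, against 43.5 kb for the RPS16 start. RPS16 had 472 ± 6.79 CPM (SD, n = 2) with CRISPRa recruitment, against 469 ± 9.20 CPM (SD, n = 4) in the controls. Its log2 fold change was 0.01 (SE 0.08). SELV, a selenoprotein gene between DLL3 and EID2B, had 3.93 ± 0.42 and 3.16 ± 0.74 CPM, a log2 fold change of 0.32 (SE 0.26, adjusted p = 0.406 with edgeR). MED29, a Mediator subunit, and PAF1, which belongs to a complex that travels with RNA polymerase II, had 0.07 and 0.17. Of these 4, RPS16 lay between PLEKHG2 and SUPT5H, which both rose. SELV lay between DLL3, which rose, and EID2B, which did not pass, with EID2, which rose, beyond EID2B. MED29 and PAF1 lay farther upstream than ZFP36. Not passing the test does not show that SELV was unchanged. Under CRISPRi the 4 genes lay between -0.36 and 0.12.

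Out to 500 kb from the TIMM50 start, 14 other genes were tested with each fusion and 14 had too few counts, the highest of these at 22 counts for ACP7. With CRISPRa 4 of the 14 passed, a share close to the 28.0% of all genes. NCCRP1 rose 5.51-fold (2.86 ± 0.55 to 15.8 ± 3.32 CPM, adjusted p = 0.000129 with edgeR) at 282 kb from the LTR5HS, FCGBP, a secreted mucin-like protein, 3.81-fold (2.21 ± 0.88 to 8.48 ± 2.07 CPM, adjusted p = 0.00424) and PSMC4, an ATPase of the proteasome, 1.48-fold (145 ± 8.83 to 214 ± 8.83 CPM, adjusted p = 0.00409). LRFN1, at 159 kb, fell 2.19-fold (13.6 ± 4.81 to 6.23 ± 1.02 CPM, adjusted p = 0.0404). LRFN1 no longer passed with the replicate block (adjusted p = 0.0501) or without either recruitment library or either LTR5HS Sa library, with adjusted p values of up to 0.226. With nontarget Sp alone as control its log2 fold change was -0.61 instead of -1.13 (adjusted p = 0.0782). PSMC4 without recruitment replicate 1 (adjusted p = 0.0516) and FCGBP without recruitment replicate 2 (0.0508) also missed the threshold. With CRISPRi FCGBP fell 3.52-fold, from 3.56 ± 0.25 to 0.99 ± 0.34 CPM (adjusted p = 0.00665, and 0.0768 without recruitment replicate 2), and no other of the 14 passed, where 2.77% of all genes did. A second group of 5 guide sites without mismatch lies 479 kb downstream of the TIMM50 start, 25.0 kb from the start of FCGBP and 11.3 kb from that of PSMC4. Over these 14 genes the log2 fold changes had a median of 0.21 with CRISPRa and -0.04 with CRISPRi, against -0.02 and 0.0006 over all genes.

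**Figure D4:**
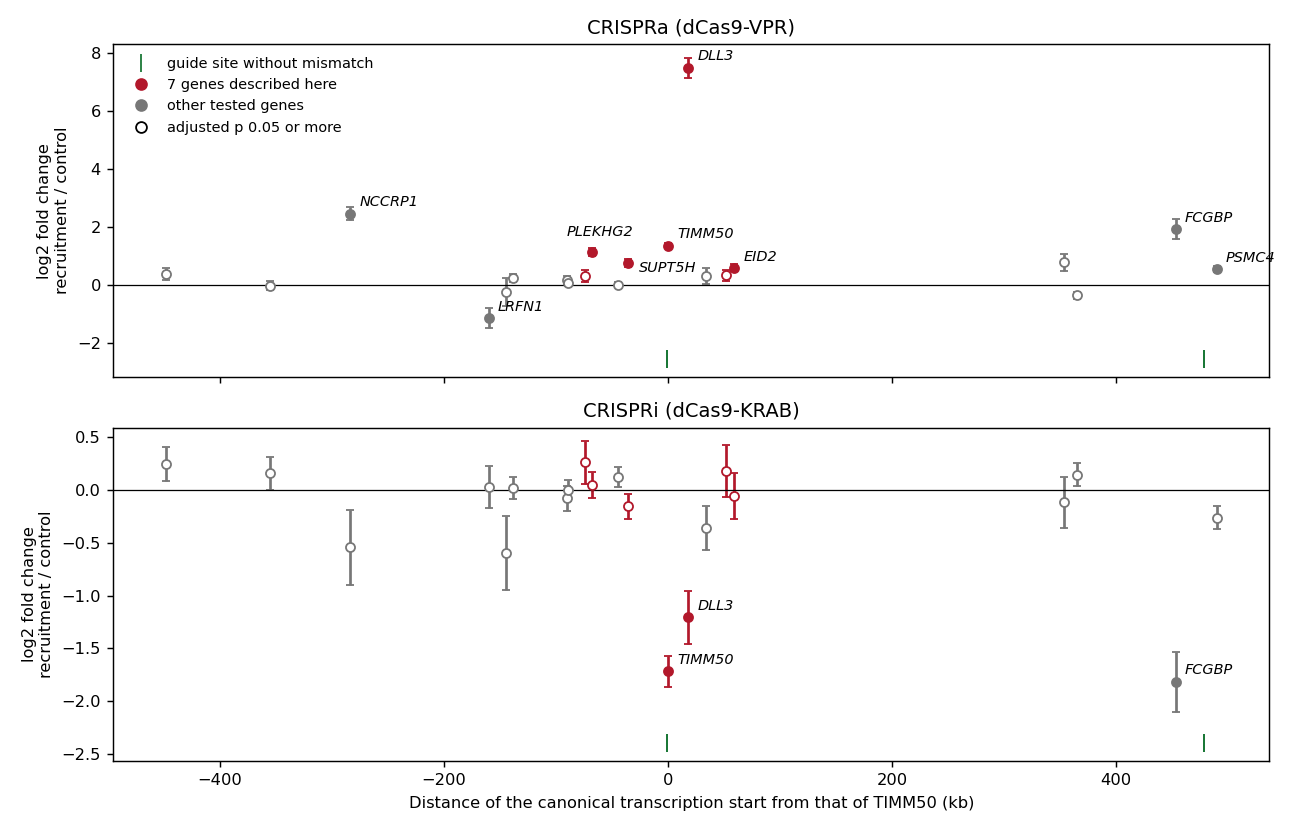
Log2 fold change of recruitment over control (y axis, bars are SE) for all genes tested within 500 kb, by the distance of their canonical start from that of TIMM50 in kb (x axis). Green ticks are guide sites without mismatch, red points the 7 genes and grey points the 14 others. Filled points passed the threshold, among them DLL3 at 7.49 and TIMM50 at 1.36 with dCas9-VPR.

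Among the other genes of the pathways in which the 7 act, 1 passed the edgeR test with CRISPRi, where 2.77% of all genes did. For mitochondrial protein import, 25 genes besides TIMM50 were tested. With CRISPRa TOMM70A, an outer membrane receptor, rose (log2 fold change 0.54, adjusted p = 0.0101 with edgeR), and TOMM5, a small subunit of the outer membrane pore, and HSPA9, the chaperone that pulls proteins into the matrix, fell (-0.75 and -0.58, adjusted p = 0.00316 and 0.0106). Thus 3 of 25 passed beside 28.0% of all genes, and the list's median was -0.13. The count was 5 with LTR5HS Sa alone as control and 1 without recruitment replicate 2. TOMM70A no longer passed without either recruitment library (adjusted p = 0.0968 and 0.0577), nor HSPA9 without recruitment replicate 2 (adjusted p = 0.108). Under CRISPRi 1 of the 25 passed, beside 2.77% of all genes. This was DNAJC15, a co-chaperone of the import motor, which fell from 44.4 ± 2.62 to 24.8 ± 2.46 CPM (log2 fold change -0.84, adjusted p = 0.00492 with edgeR). Without recruitment replicate 2 its adjusted p was 0.0717.

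For Notch signaling, 39 genes besides DLL3 were tested, and with CRISPRa 8 rose and 7 fell. That is 15 of 39 genes, where 28.0% of all genes passed. Of the HES and HEY repressors that Notch signaling switches on, HES1 rose from 12.9 ± 2.16 to 45.8 ± 5.85 CPM and HEY2 from 7.79 ± 2.04 to 26.1 ± 1.71 CPM. HES4 fell from 41.7 ± 9.59 to 5.09 ± 0.82 CPM and HES6, a relative that opposes HES1, from 19.01 ± 2.66 to 6.004 ± 0.40 CPM. Their adjusted p values lay between 0.000116 and 0.000741 with edgeR. The list's median was -0.07. Under CRISPRi, which lowered DLL3 from an already low level, 0 of 39 passed with edgeR, where 2.77% of all genes did (5 at an unadjusted p under 0.05, 0 with DESeq2), and 3 passed with nontarget Sp alone as control. Without recruitment replicate 1, 9 of the 39 passed with CRISPRa.

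For transcription elongation, 17 genes besides SUPT5H were tested, and CTR9, a subunit of the PAF1 complex, was the one that rose with CRISPRa, where 28.0% of all genes passed (log2 fold change 0.29, adjusted p = 0.0430 with edgeR). CTR9 passed in 1 of the 6 fits that left out a library, the one without nontarget Sp replicate 1, with adjusted p values of up to 0.237. SUPT4H1, the partner of SUPT5H in DSIF, had 0.37 (SE 0.15, adjusted p = 0.113), and with the replicate number as a block it passed (adjusted p = 0.0395). With CRISPRi 0 of the 17 passed with edgeR, where 2.77% of all genes did (0 of the 17 at an unadjusted p under 0.05, 0 with DESeq2). For the family of ZFP36 and the immediate early genes, 10 were tested and 7 passed with CRISPRa, 4 higher and 3 lower, beside the 28.0% of all genes. The ZFP36 paralog ZFP36L1 rose from 69.6 ± 4.95 to 127 ± 0.20 CPM, JUN and ATF3 rose 1.90-fold and 2.28-fold, and IER2 fell 2.03-fold. For the relatives of PLEKHG2, PLEKHG5 and PLEKHG3 rose 2.97-fold and 1.796-fold and PLEKHG6 fell 2.08-fold, which is 3 of 6 tested beside the same 28.0%. PLEKHG3 (adjusted p = 0.0730 and 0.0508) and PLEKHG6 (0.164 and 0.105) no longer passed without recruitment replicate 1 or 2. EID1 and EID3 did not pass. Under CRISPRi 0 of the 18 tested members of these 3 families passed with edgeR, beside 2.77% of all genes. Of the 18, 6 had an unadjusted p under 0.05 with edgeR, and 3 passed with DESeq2.

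Over the 12 libraries, the 7 genes were compared by Pearson's r of log2(CPM + 0.5), as a description, since the libraries share lines and arrays. SUPT5H and PLEKHG2 were the most alike pair, with 0.99, followed by SUPT5H and EID2 with 0.95 and PLEKHG2 and EID2 with 0.94. TIMM50 and DLL3, the pair that fell with CRISPRi, had 0.76. EID2B had no value above 0.40 with another of the 7. The comparison covered 14556 other genes with a mean of at least 1 CPM over the 12 libraries. Those most like TIMM50 were KLRG2 (0.99), AARS2 (0.99), a mitochondrial alanyl-tRNA synthetase, and LINC00665 (0.98). KLRG2 went from 24.8 ± 4.77 to 91.8 ± 23.4 CPM with CRISPRa and from 29.5 ± 3.08 to 5.53 ± 1.56 CPM with CRISPRi, and LINC00665 from 23.5 ± 3.65 to 60.9 ± 1.64 and from 24.6 ± 2.73 to 3.82 ± 0.73 CPM. Those most like DLL3 were AIRE, TAT and HPGD (each 0.99), which were low without CRISPRa recruitment. AIRE, at 11.6 ± 1.90 CPM with CRISPRa recruitment, and TAT, at 6.13 ± 0.25 CPM, had means under 1 CPM in every other group. These 2 genes reached the mean of 1 CPM only through the libraries where DLL3 was high, so their likeness to it is no separate result. HPGD, an enzyme that inactivates prostaglandins, went from 1.65 ± 1.73 to 367 ± 27.4 CPM with CRISPRa. For DLL3, r follows mainly from the 2 libraries with CRISPRa recruitment, since the other 10 held between 2.099 and 7.22 CPM.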

How the data were processed

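RNA-seq was analysed from 12 libraries of 6 NCCIT lines. Per the labels and the study's methods, the authors trimmed reads with cutadapt 1.8.1, aligned them to hg38 with HISAT2 2.1.0 and assigned them to genes with featureCounts 1.4.6-p2, after base calling with CASAVA 1.8. The deposited values are raw counts per gene, and a deposited column of another kind holds gene length in bp, which was used for CPM per kb. Neither the annotation of genes nor the strandedness of the counting is given in the sources used here, so that a gene and an overlapping or antisense partner may share reads. The counts give 1 value per gene, and where transcripts start was not analysed here.

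R 4.3.3 and edgeR 4.0.16 served to test the counts, after filterByExpr and TMM scaling, by the quasi-likelihood F-test with Benjamini-Hochberg adjustment over all tested genes, at a threshold of 0.05. CPM floors cover counting error only. All 7 genes passed the filter with both fusions. Recruitment was compared with both control arrays within each fusion, and the interaction was fitted over 12 libraries. Replicate numbers came from the labels. Deviations of equal numbers correlated between arrays, with r between 0.205 and 0.509 for every pair, so the numbers were taken to pair the samples. The main tests did not use this pairing, and the fit with the number as a block was an alternative. Replicates of a line differed by more than sampling noise, with a chi-square per degree of freedom between 9.16 and 40.4. The scripts were tested on simulated data.

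Other alternatives were DESeq2 1.42.0, its size factors in edgeR, a stricter threshold of 0.01, leaving out each library, dropping the filter, a minimum of 10 counts per library, 1 joint fit of the 12 libraries and either control array alone. Positions are those of GENCODE 44 on GRCh38. LTR5HS was searched with blastn 2.17.0, using sequences at positions that the study lists, and guide sequences are those of the study. Named genes are the 7, the genes within 500 kb that passed, the 4 of each pathway list with the lowest adjusted p, and the 3 most correlated with TIMM50 and DLL3. RPS16, SELV, MED29, PAF1, SUPT4H1, ACP7, HEYL and COL1A1 were named after their values were seen. The 7 genes and the lists were chosen with earlier results of these data known. The study's ChIP-seq and RT-qPCR data were not analysed here.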

Additional observations from a re-analysis of the deposited data

Results flagged for a closer look

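In 1 of 14 groups of 4 control libraries, a library stood apart by Dixon's criterion, which chance meets in about 1 in 20 groups. PLEKHG2 had 49.25 CPM in dCas9-KRAB LTR5HS Sa replicate 1, while the other 3 control libraries with that fusion had 41.67 to 41.81 CPM. The effect of recruitment differed between the fusions for TIMM50 by 3.08, for DLL3 by 8.67, for PLEKHG2 by 1.08 and for SUPT5H by 0.93 on the log2 scale, each by the interaction test.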

How the results depend on the processing

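For the 7 genes, 506 of 546 values under an alternative kept their direction and their side of the threshold, 15 lost the threshold, 5 passed it newly and 20 changed sign. Of the 390 values of those other named genes that were followed through the alternatives, 355 kept both, 30 lost the threshold, 1 passed it and 4 changed sign. With CRISPRa the count of 5 of 7 genes was 4 without recruitment replicate 2, when EID2 was lost, and 5 under the other alternatives run. With CRISPRi the count of 2 was 1 with nontarget Sp alone as control, 1 with all libraries in a joint fit and 1 at a threshold of 0.01, and between 1 and 2 when a library was left out, since DLL3 no longer passed. For the other genes within 500 kb, the CRISPRa count of 4 was 7 with LTR5HS Sa alone and between 2 and 5 without a library, and the CRISPRi count of 1 was between 0 and 1. Of all genes, 4548 passed with CRISPRa, 2517 at a threshold of 0.01 and between 2299 (without recruitment replicate 2) and 4626 without a library. With CRISPRi 430 passed, 716 with DESeq2, 236 at a threshold of 0.01 and between 214 (without recruitment replicate 2) and 441 without a library. Leaving out a recruitment library left 1 library in that group, which was assumed to vary like the others. The cause of these shifts was not tested, and the fits that left out a library also held fewer samples.

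Between the control arrays, the replicate block gave 1 of 7 genes and 3824 genes in all with dCas9-VPR and 1730 in all with dCas9-KRAB, against 0, 700 and 226 without it. It changed no other call of the 7 genes. Without filter the dCas9-KRAB count was 619. Leaving out a library gave between 0 and 2 of 7 genes, and between 433 and 3093 (without nontarget Sp replicate 2) genes in all, with dCas9-VPR, and between 95 (without nontarget Sp replicate 1) and 502 with dCas9-KRAB.

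Changes of sign concerned values that had not passed the test. With LTR5HS Sa alone, the CRISPRi values were -0.011 for PLEKHG2 and -0.063 for EID2B, and the CRISPRa value of MED29 was -0.0086. For RPS16 with CRISPRa it was -0.0010 without filter and -0.0045 with nontarget Sp alone. For TIMM50 between the control arrays with dCas9-KRAB it was -0.0038 without filter and -0.0033 with at least 10 counts. Leaving out a library gave ranges that crossed 0 for PLEKHG2 (-0.053 to 0.14) and EID2 (-0.37 to 0.20) with CRISPRi, RPS16 with CRISPRa (-0.014 to 0.0335), ZFP36 (-0.058 to 0.10) and EID2B (-0.015 to 0.33) in the interaction, and EID2B between the fusions (-0.16 to 0.059). Between the control arrays with dCas9-VPR they did for DLL3 (-0.56 to 0.96), EID2 (-0.062 to 0.23) and EID2B (-0.15 to 0.058), and with dCas9-KRAB for TIMM50 (-0.041 to 0.037), SUPT5H (-0.051 to 0.24) and EID2 (-0.28 to 0.34). At 31 to 303 counts per library, DLL3 in the dCas9-KRAB lines rested on few reads.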
